A study of Mus musculus with 2 samples.

Results

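The genes described here are 32 neighbours on mouse chromosome 15, from Ext1 to Pvt1 in gene order, with Myc and Pvt1 at the far end. They are 32 of the 55361 features in each matrix, and all 32 symbols were found in both matrices. The list was drawn up from measured values of these libraries, so its own levels are given as a description. Gene order came from matching Ensembl identifiers to an annotation of an older mouse build than the files use, so only order and chromosome are used and no coordinates are given. That annotation put 121 features of the matrices between Ext1 and Pvt1, of which 89 are not on the list.

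The study sequenced transcript 3′ ends of single pancreatic ductal adenocarcinoma cells, captured in droplets, in 2 libraries, 1 labelled whole tumour and 1 labelled as sorted for high Cd9 (CD9hi). Both came from mice of the same genotype, which includes Trp53frt/frt together with Pdx1-Flp, and at the Rosa26 locus both Rosa26mTmG and Rosa26FSF-creER. Flp recombinase is driven by the Pdx1 promoter in the pancreatic lineage, where it deletes Trp53, and both libraries share these alleles. Ages, drug treatment and the number of tumours per library are not given in the sources used here. Per the labels' protocols, sorting of live cells used either GFP or CD9. With 1 library in each group, no difference below has a replicate check and none was tested. All intervals are 95% intervals that cover counting error alone.

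After filtering, 2550 of 3082 whole-tumour barcodes and 5092 of 5500 CD9hi barcodes were kept, with medians of 17686 and 21792 unique molecular identifiers (UMIs, the counted transcript molecules). The libraries shared 2 barcodes. The reporter features were barely counted, with GFP at 0 UMIs in both libraries and TdTomato at 6 and 10 UMIs, so they do not check the sort. In CPM, a gene's count scaled to the UMIs of all cells compared, Cd9 was at 1273 in whole-tumour and 2367 in CD9hi cells. Epcam was at 1925 and 1051 CPM and Vim at 1139 and 4862 CPM, so the libraries differ in epithelial and mesenchymal markers. The sort can set which cells each library holds.

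Myc encodes a transcription factor that pairs with Max and drives ribosome production, metabolism and cell growth. Pvt1 is a long noncoding RNA gene next to it, and the stretch around both is known as a site of recurrent DNA copy gain in many cancers. The other members have unrelated roles, from heparan sulfate and hyaluronan synthesis to mitochondrial respiration and protein degradation. RNA counts do not measure DNA copy number, and no DNA data were analysed here.

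Summed over the 32 genes, the CD9hi library had 2041 CPM and the whole tumour 1204 CPM. The typical cell differed far less, with a median of 13.5 member UMIs in every 10000 UMIs in CD9hi cells and 12.0 in whole-tumour cells. The upper end differed most: the 95th percentile was 41.4 in CD9hi cells and 20.3 in whole-tumour cells, and the highest cell reached 700.3 and 49.8. In that highest CD9hi cell the 32 genes took 7.003% of all UMIs.

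A cell was called raised when its member UMIs, as a share of its UMIs, were at least 3 times the median of whole-tumour cells. By this rule 272 of 5092 CD9hi cells were raised (5.34%, exact Clopper-Pearson interval 4.74 to 5.995) and 4 of 2550 whole-tumour cells (0.157%, 0.0428 to 0.401). These 272 cells held 37.1% of all member UMIs in the CD9hi library. The lowest raised CD9hi cell was at 3.00 times the median and the highest cell not raised at 2.97 times. Near this limit, 127 CD9hi cells lay between 2 and 3 times and 32 between 3 and 4 times, while 204 were at 5 times or more and 91 at 10 times or more. After each cell was thinned to 5000 UMIs, which left out 165 whole-tumour and 114 CD9hi cells, 5.38% of CD9hi and 0.168% of whole-tumour cells were raised.

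**Figure D1:**
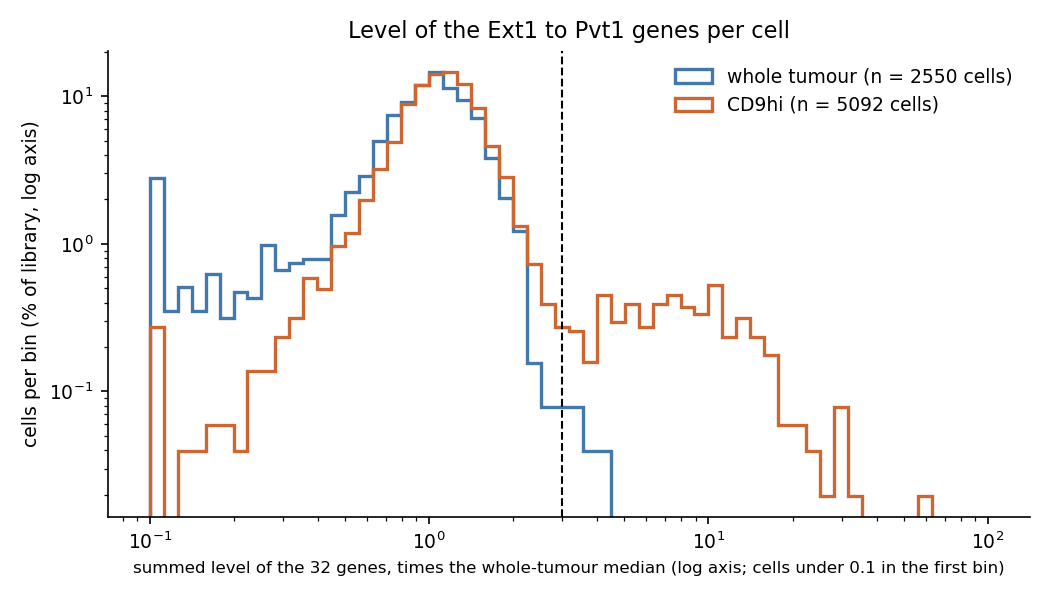
Summed level of the 32 genes in each cell, as times the whole-tumour median (log axis), against the percent of each library's cells in each bin (log axis), with a dashed line at 3 times. The main peaks of both libraries lie near 1, and 272 CD9hi cells form a tail to the right of the line that reaches 58.6 times, where the whole tumour has 4 cells, the highest at 4.17 times.

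The 4 raised whole-tumour cells rested on 13 to 23 member UMIs each. In 2 of them 14 of 19 and 9 of 13 of these UMIs came from Trib1 alone, a pseudokinase gene, with 4 and 5 members detected. The other 2 had 10 and 12 members detected, with 1 and 2 Myc UMIs. When the list was divided in gene order into its first 16 members (Ext1 to Zhx1) and its last 16 (Atad2 to Pvt1), 254 CD9hi cells (4.99%, 4.41 to 5.62) were at 3 times the whole-tumour median or more for both sets. No whole-tumour cell was, and the Clopper-Pearson interval for 0 of 2550 cells reaches up to 0.145%.

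**Figure D2:**
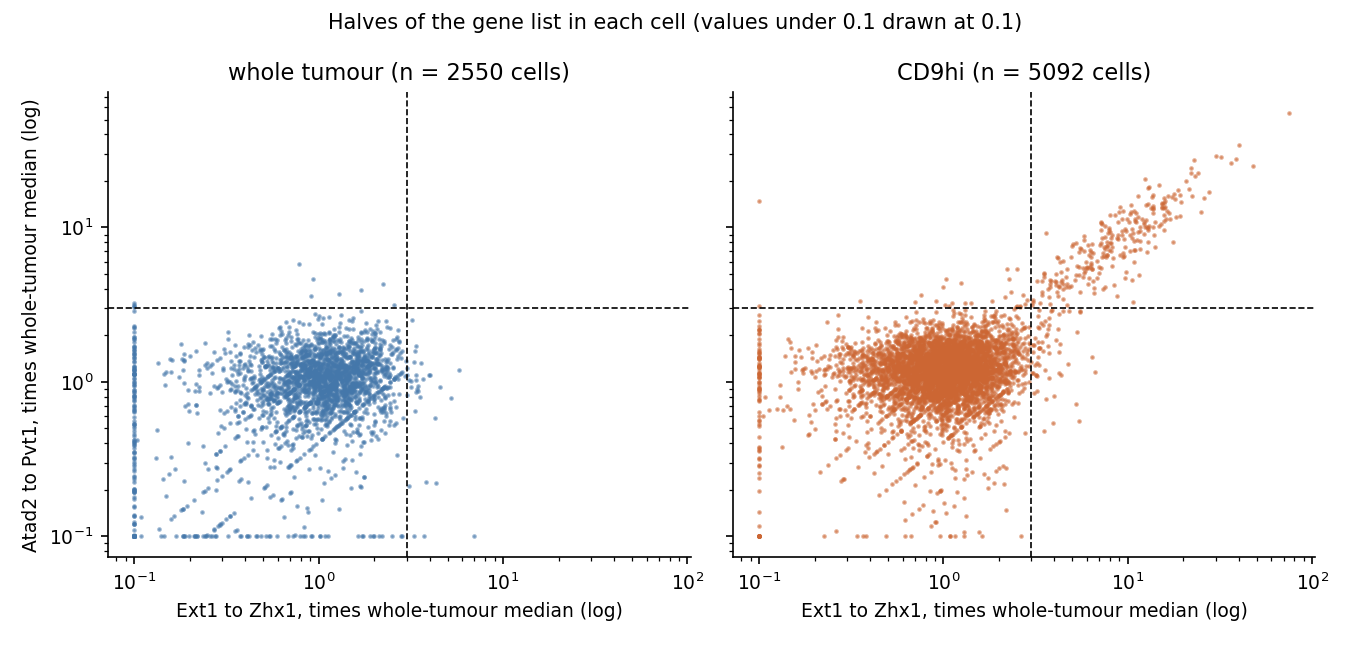
Level of the first 16 members (horizontal) and the last 16 members (vertical) in each cell, as times the whole-tumour median, on log axes, with 1 point per cell and dashed lines at 3 times. In the CD9hi panel 254 cells lie above both lines along a diagonal, and the whole-tumour panel has none there.

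Across the libraries, 28 of the 32 members were measured, meaning a mean CPM of at least 5. Of these, 18 were at least 1.5-fold higher in the CD9hi library and 3 at least 1.5-fold lower, beside 17.1% of all 9760 measured genes higher and 13.4% lower. Mtbp, Tbc1d31 and Pvt1 were at 3.29, 3.16 and 3.76 CPM in the whole tumour. They passed the limit only through CD9hi cells, and all count among the 18. The median log2 ratio of CD9hi over whole tumour was 0.92 for the members and 0.13 for all measured genes. The list was chosen with this contrast in view, so the counts are descriptive. With raised cells left out of both libraries, 6 of 25 measured members were higher and 5 lower, beside 16.7% and 13.4% of all genes, and the members' median was 0.32. Without these cells the share of members that were higher was thus smaller. There Pvt1, among the 6, was measured only through CD9hi cells. Deptor and Trmt12, among the 5, were measured only through whole-tumour cells.

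Whole-tumour cells had Myc at 34.3 CPM and CD9hi cells at 94.6 CPM, giving a log2 ratio of 1.47 (1.39 to 1.54). Pvt1 was at 3.76 and 25.5 CPM, a log2 ratio of 2.76 (2.54 to 2.99). Unlike most members, both stayed at least 1.5-fold higher without raised cells, at log2 ratios of 1.05 and 1.67. Has2, the hyaluronan synthase gene, was at 10.1 and 28.8 CPM, and its ratio of 1.51 was 1.39 without raised cells. Tmem65, which encodes a mitochondrial membrane protein, was at 1.34 and at 0.97 without them.

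For other members the library difference was small once raised cells were left out. Mrpl13, a mitochondrial ribosomal protein gene, had a log2 ratio of 0.91 with raised cells and 0.09 without them. Ndufb9, a subunit gene of respiratory complex I, went from 0.96 to 0.20. Taf2, a TFIID subunit gene, went from 0.59 to -0.01. Mtbp, which encodes an Mdm2-binding protein, went from 1.41 to 0.25. The raised cells, 5.34% of CD9hi cells, held 58.2% of its Mtbp UMIs, 56.2% of its Pvt1 UMIs and 47.0% of its Mrpl13 UMIs.

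Some members were lower in the CD9hi library. Mal2, a gene of apical transport in epithelial cells, had 49.9 CPM among whole-tumour cells against 5.22 CPM among CD9hi cells, giving a log2 ratio of -3.26 (-3.39 to -3.13). Lratd2 was at 18.0 and 6.27 CPM, and Tnfrsf11b, which encodes the decoy receptor osteoprotegerin, at 17.3 and 10.7 CPM. The syntrophin gene Sntb1, below the measuring limit, was at 4.02 and 0.242 CPM. Trib1 was nearly level, at 144 and 153 CPM. Epcam was also lower in the CD9hi library, at the values given above. Its part in these differences was not tested.

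**Figure D3:**
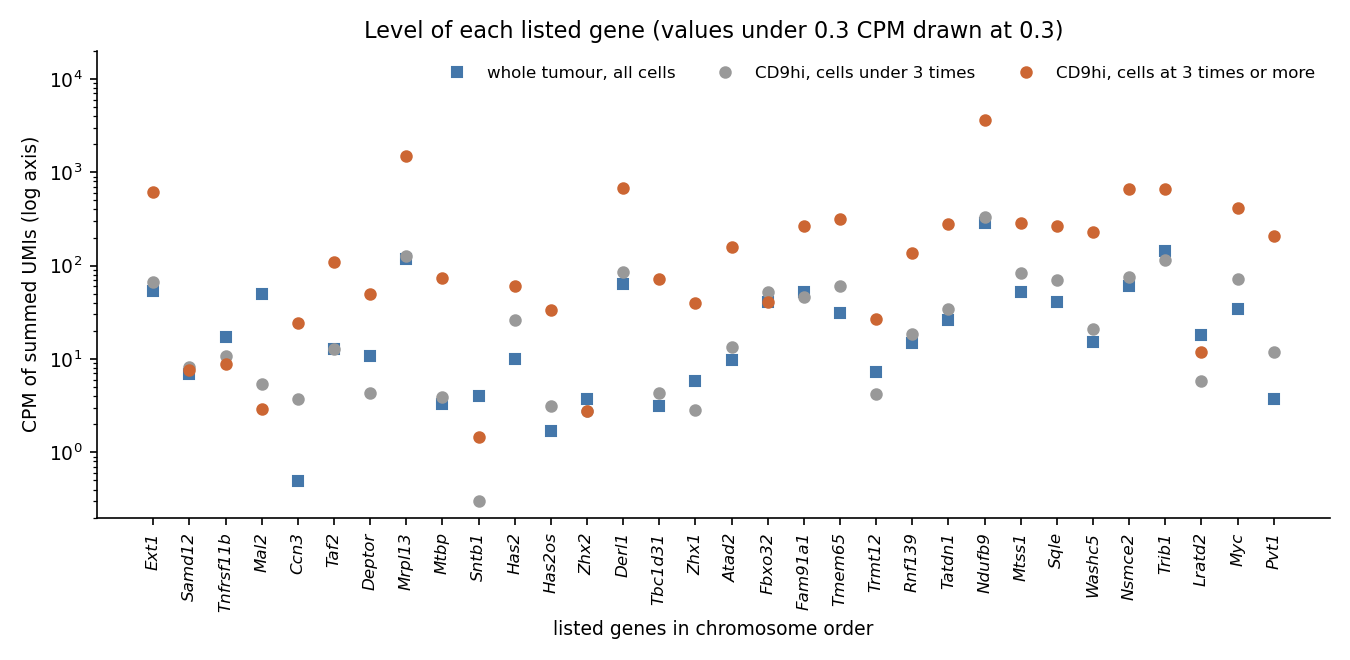
CPM of each of the 32 genes in chromosome order (log axis) in all whole-tumour cells (blue squares), CD9hi cells under 3 times (grey circles) and raised CD9hi cells (orange circles), each from 1 library. Orange points stand above the grey for most genes, as for Ndufb9 at 3668 against 331 CPM, but not for Samd12, Tnfrsf11b, Mal2, Zhx2 or Fbxo32.

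Within the CD9hi library, raised cells were compared with the other 4820 cells. Since the summed level chose these cells, the sizes are a description. Of 30 measured members, 26 were at least 1.5-fold higher in raised cells, 1 was lower (Mal2) and 3 were neither, beside 12% of all 9438 measured genes higher and 21.3% lower. Measured here means a mean CPM of at least 5 over raised and other cells together. Ccn3, Deptor, Mtbp, Has2os, Tbc1d31, Zhx1 and Trmt12 were under 5 CPM in the other cells. They passed this limit only through the raised cells, and all count among the 26. The same limit applies wherever these 30 members are counted below. The median log2 ratio of raised over other cells was 2.93 for the members and -0.05 for all measured genes. Against other cells of the same expression clusters, in clusters made without any gene of the interval, 29 of 30 were higher and 0 lower, beside 4.97% and 16% of all genes, and the members' median was 2.73.

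Myc was at 411 CPM in raised cells and 71.0 CPM in the other cells, a log2 ratio of 2.53 (2.47 to 2.59). Per cell, Myc ran from 0 to 4484 CPM with a median of 236 in raised cells, and from 0 to 1264 CPM with a median of 37.7 in the others, so single cells of the 2 sets overlapped. Pvt1 was at 206 and 12.0 CPM, a log2 ratio of 4.10 (4.00 to 4.21). Its ratio was thus larger than that of its neighbour Myc. Per cell, the Pvt1 median was 118 CPM in raised cells and 0 in the others.

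The members with the largest log2 ratios in raised cells were Mtbp at 4.22, Pvt1, Tbc1d31 at 4.06 and the zinc finger and homeobox gene Zhx1 at 3.81. Of these, Mtbp, Tbc1d31 and Zhx1 were measured only through the raised cells. Against the same clusters Mtbp, Pvt1 and Tbc1d31 were at 3.79, 3.53 and 3.32, and Zhx1 was at 2.68, below Mrpl13 at 3.30. The members of mitochondrial function had different ratios. Ndufb9 was at 3668 and 331 CPM (3.47, 3.45 to 3.49) and supplied 35.0% of the members' summed gain in CPM. Mrpl13 was at 1497 and 126 CPM (3.57) and supplied 14.4%. Tmem65 was at 317 and 60.2 CPM (2.39).

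The next members have roles in chromatin, transcription, genome maintenance and RNA. Atad2, a bromodomain ATPase gene, was at 160 and 13.5 CPM (3.57). Taf2 was at 108 and 12.7 CPM (3.09). Nsmce2, a SUMO ligase gene of the Smc5/6 complex, was at 667 and 74.9 CPM (3.16). Trmt12, a transfer RNA modification gene, was at 27.1 and 4.21 CPM (2.69), and Tatdn1, a nuclease gene, at 279 and 33.9 CPM (3.04). The 5 ratios ran from 2.69 to 3.57.

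Members with roles in protein turnover and trafficking differed among themselves, and Fbxo32 and Mal2, described further on, were not higher. Derl1, whose product helps remove misfolded proteins from the endoplasmic reticulum, was at 677 and 85.3 CPM (2.99). Rnf139, a ubiquitin ligase gene of the same membrane, was at 138 and 18.7 CPM (2.88). Washc5, of the WASH actin-nucleating complex on endosomes, was at 231 and 20.7 CPM (3.48), and Fam91a1, of Golgi vesicle trafficking, at 262 and 46.3 CPM (2.502). Deptor, an inhibitor of mTOR, was at 49.5 and 4.32 CPM (3.52).

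Matrix and surface genes were more mixed. Ext1, which builds heparan sulfate chains, was at 620 and 66.5 CPM (3.22). Has2 was at 59.8 and 26.5 CPM, a smaller log2 ratio of 1.18. Its antisense gene Has2os was at 33.7 and 3.17 CPM (3.41). Whether counting used the strand is not given in the sources used here, so the reads of these overlapping genes cannot be told apart with certainty. Ccn3, a matricellular protein gene, was at 24.1 and 3.71 CPM (2.70). Sntb1 had 12 UMIs in raised cells and is not counted as measured.

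The remaining signalling, lipid and cytoskeletal members had intermediate ratios. Trib1 was at 661 and 115 CPM (2.525, 2.48 to 2.57). Sqle, the squalene epoxidase of cholesterol synthesis, was at 265 and 70.7 CPM (1.91), and Mtss1, a gene of membrane and actin organisation, at 288 and 82.8 CPM (1.80). Lratd2 was at 11.9 and 5.85 CPM (1.03, 0.71 to 1.33).

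Not every member was higher. Samd12 was at 7.71 and 8.17 CPM, with a log2 ratio of -0.07 (-0.47 to 0.28). Tnfrsf11b was at 8.91 and 10.8 CPM (-0.27, -0.63 to 0.06). Mal2 was at 2.89 and 5.39 CPM, from 24 UMIs in raised cells (-0.87, -1.55 to -0.31). Zhx2, below the measuring limit, had 23 UMIs in raised cells (0.02, -0.69 to 0.60). Fbxo32, a muscle-type ubiquitin ligase gene, was well detected at 40.3 and 52.1 CPM (-0.37, -0.53 to -0.21).

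The comparison set decided the values of 3 of these members. Against other cells of the same clusters, the log2 ratio was 1.07 for Fbxo32, 1.21 for Tnfrsf11b and 0.75 for Mal2, the last a turn in direction. Within cluster 3, Mal2 was at -0.95, so it did not turn there. Samd12 and Zhx2 stayed near level, at 0.25 and 0.23.

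To measure members in cells they had not chosen, the last 16 members chose 281 CD9hi cells in which the first 16 were measured, and the first 16 chose 314 cells in which the last 16 were measured. Of 14 measured members of the first 16, 11 were at least 1.5-fold higher and 1 lower, with a median log2 ratio of 3.13, beside 11.9% of all measured genes higher and 20.1% lower in the same cells. Of the last 16, 15 were higher and 0 lower, beside 10.9% and 19.4%, and their median was 2.495. Among the 11, Ccn3, Deptor, Mtbp, Has2os, Tbc1d31 and Zhx1 were under 5 CPM in the cells not chosen. So was Trmt12 among the 15, and all of these were measured only through the chosen cells. Myc was at 381 CPM in cells chosen by Ext1 to Zhx1 and 71.3 CPM in the others, a log2 ratio of 2.42 (2.36 to 2.48). Pvt1 was at 190.2 and 12.0 CPM (3.98). Ext1, at the opposite end, was at 609 and 66.5 CPM in cells chosen by Atad2 to Pvt1 (3.20, 3.14 to 3.25). These cells come from 1 library and are not replicates. Both sets of 16 come from 1 list drawn up from these data, so neither is independent of the other and the values are a description.

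Cells were binned by the level of the first 16 members. The median level of the last 16 was higher in each higher bin, with little change under 3 times. In CD9hi cells where Ext1 to Zhx1 lay under 1 times the whole-tumour median, Atad2 to Pvt1 were at a median of 1.15 times. This median was 1.19 where the first 16 lay at 1 to 2 times, 1.38 at 2 to 3 times and 2.88 at 3 to 5 times. It was 6.85 at 5 to 10 times, 11.4 at 10 to 20 times and 23.5 in the 18 cells at 20 times or more. Myc itself went from 69.7 CPM in the lowest of these bins to 162 CPM at 3 to 5 times, 305 at 5 to 10 times, 524 at 10 to 20 times and 1158 CPM in the top bin. Pvt1 went from 12.2 to 546 CPM.

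Members with low ratios were low through most of this range. When cells were ranked by the sum of the other 31 members, Fbxo32 was at 52.2 CPM under 3 times, 29.1 at 3 to 5 times, 13.3 at 5 to 10 times and 57.4 at 10 to 20 times, and 186 CPM at 20 times or more. Tnfrsf11b was at 10.8, 6.52, 5.81, 9.98 and 44.5 CPM over the same bins. In these top bins Fbxo32 had 67 UMIs in 14 cells and Tnfrsf11b 15 UMIs in 12 cells. Mtbp, by contrast, went from 3.92 CPM under 3 times to 23.8, 60.0, 99.6 and 270 CPM.

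The list was divided further into 4 blocks of 8 neighbours. In most raised cells the summed level of each block was at least 3 times the whole-tumour median. A block sum can rest on few genes: in Ext1 to Mrpl13, raised cells held 12429 Mrpl13 and 64 Samd12 UMIs. Of 272 raised cells, 253 were at 3 times the whole-tumour median or more for Ext1 to Mrpl13, 256 for Mtbp to Zhx1, 262 for Atad2 to Ndufb9 and 225 for Mtss1 to Pvt1. All 4 blocks were at 3 times or more in 202 cells, 3 blocks in 51, 2 in 16 and 1 in 3. Among the other 4820 CD9hi cells, 41, 786, 39 and 182 were at this level for the blocks in gene order, 0 for all 4 blocks and 6 for 3. In the whole tumour 65, 241, 10 and 95 cells were at this level for the blocks in gene order. The sum of these same blocks set which cells were raised. A count of 0 for all 4 blocks in the other cells is thus nearly fixed by that rule, and these counts are a description. The median levels of the blocks in raised cells were 7.92, 11.0, 8.68 and 6.57 times, in gene order. The median log2 ratios of their measured members were 2.89, 3.61, 2.78 and 2.53 against all other cells, highest for Mtbp to Zhx1. In that block Mtbp, Has2os, Tbc1d31 and Zhx1 were measured only through the raised cells. Against the same clusters the block medians were 2.21, 2.75, 2.83 and 2.55, so that the order of the blocks changed.

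Blocks also varied together from cell to cell. Over the 272 raised cells, Spearman's rho between blocks ran from 0.40 (Atad2 to Ndufb9 with Mtss1 to Pvt1) to 0.82 (Ext1 to Mrpl13 with Atad2 to Ndufb9), against 0.03 to 0.13 in the other cells. The values share each cell's total UMIs, and raised cells were picked by the sum of all blocks. For the 24 members with at least 1 UMI per raised cell on average, rho with the sum of the other members ran from 0.05 (Has2) to 0.73 (Derl1), with a median of 0.46. Myc was at 0.26 and Trib1 at 0.25, below Nsmce2 at 0.72, Mrpl13 at 0.65 and Tatdn1 at 0.64.

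Raised cells differed widely in level. Their summed level had a lowest value of 3.00, a 10th percentile of 3.83, a median of 7.41, a 90th percentile of 15.5 and a highest value of 58.6 times the whole-tumour median. The coefficient of variation was 0.675, whereas counting error alone would give 0.0817. Member UMIs per raised cell ran from 11 to 2094 with a median of 242.5, so the lowest cells rest on few counts.

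The genes on either side of the interval did not share the higher level. The 8 nearest measured genes before Ext1 were Nudcd1, Eny2, Ebag9, Trps1, Eif3h, Utp23, Rad21 and Med30, at log2 ratios from -0.56 to 0.37. The 8 nearest after Pvt1 were Cyrib, Asap1, Efr3a, Phf20l1, Ccn4, Ndrg1, St3gal1 and Zfat, at -1.40 to 0.22. None of the 16 was at least 1.5-fold higher, and 3 of the last 8 were lower (Asap1, Phf20l1 and the hypoxia-responsive gene Ndrg1). Of all measured genes 12% were higher and 21.3% lower. At the near edge, Med30, a Mediator subunit gene, was at -0.56 (-0.72 to -0.41) and Ext1 at 3.22 (3.17 to 3.27). At the far edge, Pvt1 was at 4.10 and Cyrib, an actin regulator gene, at -0.15 (-0.28 to -0.03). Ext1 and Pvt1 were in the sum that chose the raised cells, and the list came from these data. The steps at both edges are therefore a description. Over the whole chromosome outside the interval, 5 of 89 measured genes before Ext1 were higher and 21 lower. After Pvt1, 10 of 257 were higher and 85 lower, beside the same shares of all genes. The highest was Kctd17 at 1.39, which was at -0.21 against the same clusters.

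**Figure D4:**
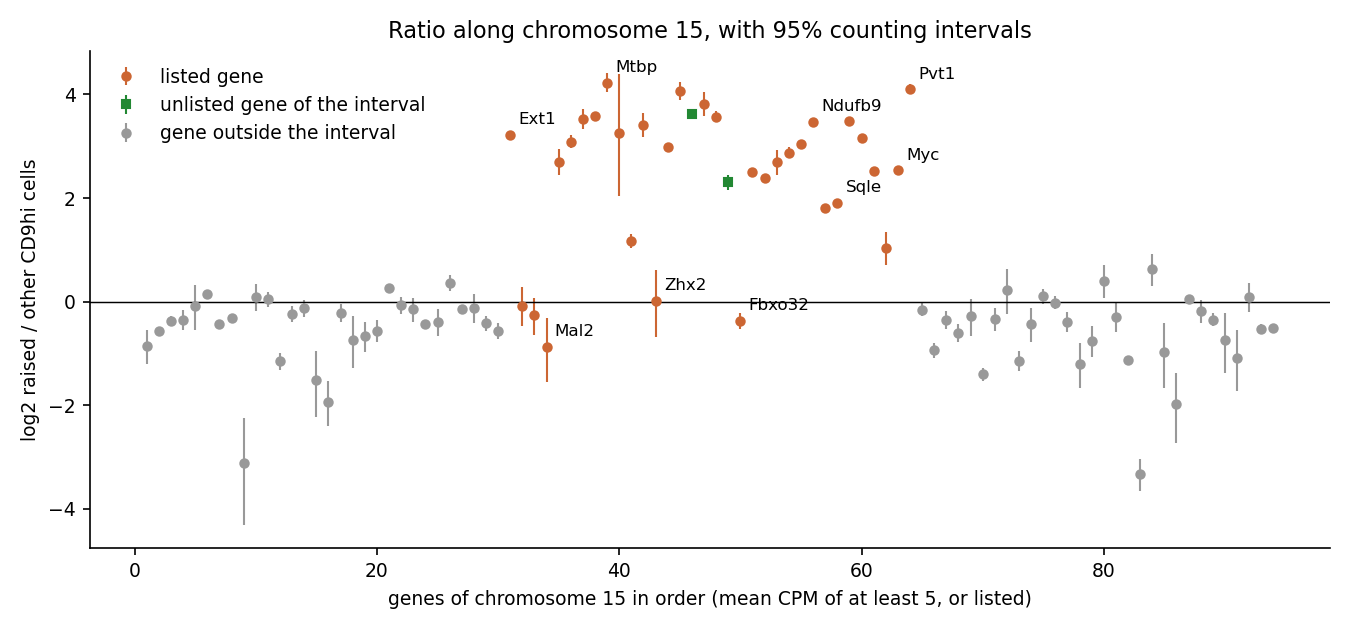
Log2 ratio of raised over other CD9hi cells for chromosome 15 genes in order, each at a mean CPM of at least 5 or listed, with 95% counting intervals. Listed genes (orange) and unlisted genes of the interval (green squares) stand between 1.03 and 4.22 apart from Samd12, Tnfrsf11b, Mal2, Zhx2 and Fbxo32, and of the neighbours drawn outside (grey) Top1mt, at 0.63, is the highest.

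Unlisted genes inside the interval were higher too. The measured ones were 9130401M01Rik, at 554 and 45.1 CPM (3.62, 3.56 to 3.68), and Wdyhv1, at 68.4 and 13.9 CPM (2.30, 2.16 to 2.44). Of the 14 unlisted features with 50 UMIs or more, 12 were at least 1.5-fold higher, among them the cohesion factor gene Dscc1 at 2.94 and the collagen gene Col14a1 at 3.49. The other 2, Enpp2 and Anxa13, were lower at -0.61 and -0.66, with 17 and 7 UMIs in raised cells and intervals that include 0. For this limit the UMIs of raised and other cells were added. Of the 12, Gm9920, Fam83a and Gm29394 had 27, 29 and 39 UMIs in the other cells, so they reached 50 only through the raised cells. Among all 15234 features with 50 UMIs or more, 17.2% were higher and 26.3% lower.

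No window of genes elsewhere in the genome had such a median. Among 9406 measured genes outside the interval, 11.7% were higher and 21.3% lower in raised cells, and 4.66% and 16% against the same clusters. In 1784 windows of 25 consecutive measured genes without a gene of the interval, the median log2 ratio ran from -0.89 to 0.43. In windows that included genes of the interval it reached 2.99, in the window from Deptor to Myc. Listed genes in those windows helped choose the raised cells, so this contrast is a description. With other cells of the same clusters as the comparison, the highest window outside the interval was at 0.39 and the highest inside at 2.79.

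Raised cells were unevenly spread over the 19 expression clusters, which were made without the interval's genes. Clusters 3, 5 and 14 held 262 of the 272 (96.3%). In cluster 3, 166 of 652 CD9hi cells were raised (25.5%, 22.2 to 29.0), in cluster 5, 55 of 635 (8.66%, 6.59 to 11.1), and in cluster 14, 41 of 100 (41.0%, 31.3 to 51.3). These clusters held 0, 0 and 1 whole-tumour cells, so cluster and library cannot be told apart. Cluster 3 was led by Crabp1, H19, S100a4 and Prrx1, with Vim at 5959 CPM and Epcam at 57.7 CPM. Cluster 5 was led by Nefl and the cell cycle genes Birc5, Pclaf and Rrm2. It had Malat1, a nuclear RNA, at 2801 CPM, against 17831 CPM in cluster 3 and 35001 CPM in cluster 14, and cluster 14 was led by Gm43123, Olfr655, Gm26885 and 7SK. No cell type name is given to any of them.

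**Figure D5:**
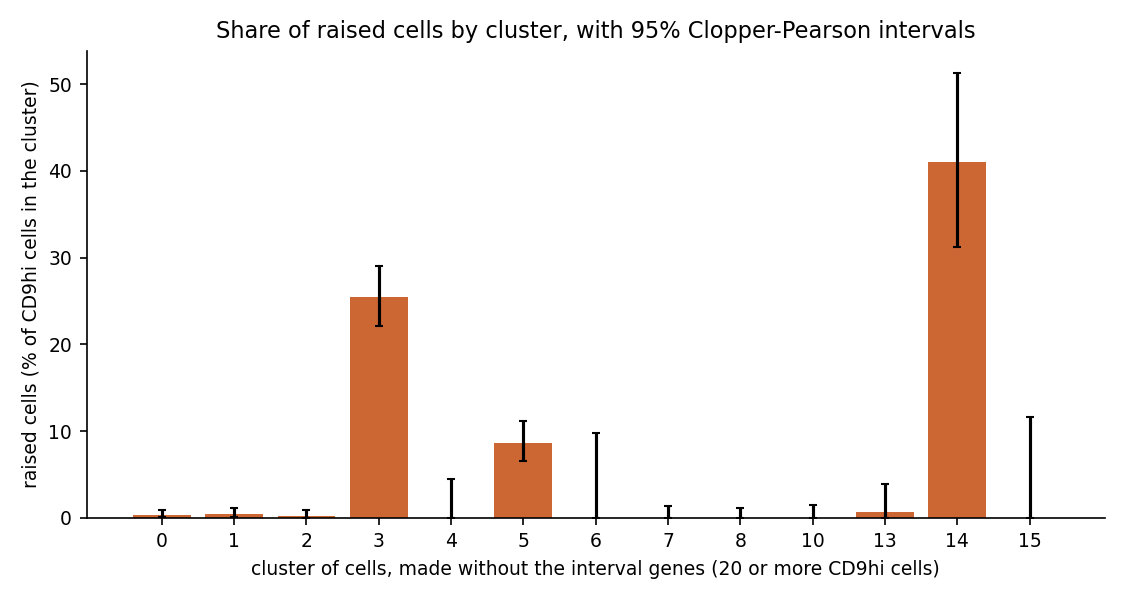
Percent of CD9hi cells that were raised in each cluster with 20 or more CD9hi cells, with 95% Clopper-Pearson intervals. Clusters 14, 3 and 5 stand at 41.0%, 25.5% and 8.66%, and each other cluster drawn lies under 1%.

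Within each of these clusters most members were higher in raised than in other cells. Of 30 measured members, 27 were at least 1.5-fold higher in cluster 3 with a median log2 ratio of 2.74, 27 in cluster 5 with 2.71 and 29 in cluster 14 with 2.86. The shares of all measured genes that were higher were 6.62%, 13.3% and 20.4%. Myc was at 504 CPM in raised and 83.1 CPM in other cells of cluster 3, at 123 and 32.5 CPM in cluster 5, and at 307 and 50.4 CPM in cluster 14. Its level thus differed between clusters in raised and in other cells alike.

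Raised cells had a median of 28778 UMIs and other CD9hi cells 21658. Mitochondrial UMIs took a median of 2.68% and 3.11%, and Malat1 was at 13516 and 22446 CPM. Cd9 was at 1551 CPM in raised and 2428 CPM in other CD9hi cells. It was at 1498 and 2505 CPM in cluster 3, 1526 and 2608 in cluster 5 and 1847 and 1871 in cluster 14. All 9 epithelial markers were lower in raised cells, where 12% of all measured genes were higher and 21.3% lower. Epcam was at 86.8 and 1124 CPM, and the markers' summed level per cell had medians of 1305 and 6100 CPM. Within the same clusters together 2 of the 9 were lower, beside 16% of all genes, and the markers' median log2 ratio was -0.21 rather than -3.52. The clusters differed, with 3 lower in cluster 3 (median -0.48) and 6 in cluster 5 (median -2.05). In cluster 14, 3 were lower and 3 higher (median 0.05). Of all genes 18.8%, 19.2% and 18.8% were lower in clusters 3, 5 and 14. The 9 markers of the mesenchymal state, summed per cell, had medians of 6285 and 7638 CPM, but 4 of them were at least 1.5-fold higher in raised cells (Twist1, Axl, Sparc and Tgfbi) and 2 lower (Fn1 and Zeb1). Within the same clusters 0 of these 9 were higher and 4 lower, beside 4.97% and 16% of all genes. Ptprc, the pan-leukocyte gene, and Adgre1 were at 0 in raised cells, and the 9 macrophage markers summed to 5.78 CPM there and 124 CPM in other cells. The 10 acinar markers summed to 4.82 and 149.6 CPM with 7 at 0 in raised cells, and the 8 islet markers to 1.20 and 265 CPM with 3 at 0. The 8 fibroblast markers summed to 137 and 139 CPM, with Lum and Dpt at 0 in raised cells. Summed per cell, they had medians of 30.9 CPM in raised and 0 in other cells. The highest cells were at 4115 and 51869 CPM. In raised cells the 5 neutrophil, 7 T and natural killer cell and 5 B cell markers summed to 0.843, 5.42 and 0.723 CPM, the 6 endothelial to 24.4 CPM and the 5 mural to 65.5 CPM. In other cells these 5 lists summed to 1.73, 43.2, 0.449, 14.6 and 84.1 CPM. Of raised cells 4.78% were among the highest doublet scores, and of other cells 4.38%. The part of nuclear RNA and of these markers in the result was not tested. With every cell thinned to the same depth, 268 of 4978 CD9hi cells were raised.

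Pathway partners of the members, at other places in the genome, were counted from lists, beside 12% of all measured genes higher and 21.3% lower in raised cells. Ndufb9 aside, 1 of 9 complex I subunit genes of the same B family was at least 1.5-fold higher and 0 lower (median 0.13), led by Ndufb10 at 0.71, Ndufb7 at -0.37 and Ndufb4 at 0.27. None of the 9 passed in either direction against the same clusters, where 4.97% of all measured genes were higher and 16% lower. Of 4 other WASH complex genes 1 was higher, Washc4 at 0.89, and of 4 measured partners of Deptor in the mTOR complexes 1, Akt1s1 at 0.67. These were 0 of 4 and 1 of 4 against the same clusters.

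Sqle and Has2 were higher in raised cells, and genes of their pathways were mostly lower or neither. Of 19 other genes of cholesterol synthesis and its control, 0 were higher and 15 lower in raised cells, beside 12% and 21.3% of all measured genes, with a median log2 ratio of -1.15, led by the isomerase gene Idi1 at -2.31, Msmo1 at -2.27 and Insig1 at -2.14. Against the same clusters 0 were higher and 11 lower (median -0.77), beside 4.97% and 16% of all genes, while Sqle was at 2.12. Of 6 measured hyaluronan genes, 0 were higher and 4 lower (median -0.86), led by Tnfaip6 at -2.26, Vcan at -1.27 and Cemip2 at -1.02. In the same clusters 3 of the 6 were lower and Has2 was at 0.67, with 0.51 in cluster 3, under 1.5-fold. Cluster 14 differed in these counts, with 1 sterol gene higher and 7 lower (median -0.15) and 1 hyaluronan gene higher and 0 lower (median 0.13). Of all measured genes, 20.4% were higher and 18.8% lower in that cluster.

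Genes that respond to Myc were mostly higher. Of 30 targets with roles in ribosome production and growth, 22 were at least 1.5-fold higher and 0 lower, with a median of 0.75, beside 12% and 21.3% of all measured genes. The largest ratios were those of the nucleolar gene Tcof1 at 1.77, the spermidine synthase gene Srm at 1.57 and the cyclin gene Ccnd2 at 1.42. Against the same clusters 11 were higher and 1 lower, Odc1 at -0.76, with a median of 0.40, beside 4.97% and 16% of all genes. By cluster, 11 of the 30 were higher in cluster 3, 4 in cluster 5 and 24 in cluster 14. The shares of all measured genes that were higher there were 6.62%, 13.3% and 20.4%, so the count in cluster 5 was near the share of all genes. The targets' median in cluster 5 was -0.01. Differences between these clusters were not tested.

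Partners of Myc and cell cycle genes were counted beside the same shares of all genes, 12% higher and 21.3% lower. Of 9 measured partners, whose median was -0.02, 2 were higher and 1 lower. These were Mxi1 at 0.69 and Mga at 0.68, and the Max dimerisation gene Mxd1 at -1.66. Max itself was at 63.7 and 43.5 CPM (0.55, 0.42 to 0.68). Within the same clusters 0 of the 9 passed in either direction, beside 4.97% of all genes higher and 16% lower. Of 19 measured proliferation genes 6 were higher and 1 lower, led by Cenpf at 2.16, Ccnb1 at 1.22 and Ccnb2 at 0.83. Within the same clusters 1 was higher and 4 lower, near the 4.97% and 16% of all genes. The list's median was 0.17 against all other cells and -0.17 within the same clusters.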

How the data were processed

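Each deposited matrix holds unnormalized UMI counts of genes in barcodes. Cell Ranger 7.0.0 and GRCm39 are named in the submitters' processing notes, and per the file headers the matrices were written by Cell Ranger 6.1.2. Use of intronic reads is not given in the sources used here. Barcodes were kept with at least 500 genes, at least 1000 UMIs and a mitochondrial share up to 20%. Doublets were kept, and as an alternative the highest Scrublet scores were removed at 0.8% per 1000 barcodes (63 and 224 cells), since the automatic threshold marked 0.549% and 0.0196%.

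CPM is counts over summed UMIs. Ratios are log2 with 0.5 counts added. Intervals are exact Poisson, conditional binomial or Clopper-Pearson. UMIs of free RNA were not removed. Cells were clustered in scanpy 1.11.5 (2000 variable genes, 30 principal components, 15 neighbours, leidenalg 0.10.2 at resolution 0.8). Identifiers matched an annotation of GRCm38 for 52083 of 55361 features. Tests on simulated counts preceded use. Named were all members, measured unlisted genes of the interval, 8 neighbours on each side, the 3 largest changes in each list, and 10 genes each way outside it with a mean CPM of at least 50. Unlisted features under the measuring limit, the cluster genes, the named markers, Max, Odc1, Top1mt and Kctd17 were chosen after their values were seen. The members and lists were chosen with earlier results of these data known. A further allele of the mouse line is not reported here.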

Additional observations from a re-analysis of the deposited data

How the results depend on the processing

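Each group had 1 library, so no spread between tumours is known and no library could be left out. No paired analysis was possible because each group had 1 library. The share of raised CD9hi cells was 7.84% at 2 times the median, 4.71% at 4 times, 12.8% with each member scaled to its mean and 4.04% without clusters 5 and 14 (chosen after seeing the data). In the whole tumour it was 1.61%, 0.0392% and 2.78% under the first 3 of these and 0.422% with no cell filter. Between the libraries, 9 members were higher and 0 lower with the minimum mean CPM set to 50, 10 were higher at 2-fold, and 6 were higher and 5 lower without raised cells, where Taf2 was at -0.0146. Fewer members are measured at that minimum, where 12 of 13 were higher in raised cells, and 23 of 27 without clusters 5 and 14. Mal2 turned to 0.75 against the same clusters, and the cause was not tested. Clusters at resolution 1.5 put 85.7% of raised cells in 3 clusters, and clusters without chromosome 15 genes 90.8%. Removing doublets or the 3 members with the most UMIs (Ndufb9, Mrpl13 and Trib1) gave 5.32% and 5.68% raised CD9hi cells. Members with few UMIs, such as Sntb1 and Zhx2, are limited by depth.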

Other observations

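Outside the interval, raised CD9hi cells also differed from the other CD9hi cells in genes elsewhere in the genome, here ranked among 2903 genes whose mean CPM was 50 or more. The 10 highest were the actin-binding gene Tagln at a log2 ratio of 3.63 (3.56 to 3.70), the imprinted noncoding RNA gene H19 at 2.65, the chaperone gene Dnajb14 at 2.43, the asparagine synthetase gene Asns at 2.22, Atf5 at 2.14, the troponin gene Tnnt2 at 1.83, the proteoglycan gene Bgn at 1.74, Pcbp4 at 1.73, the serine synthesis gene Psph at 1.70 and Fabp5 at 1.62. Tagln, H19, Dnajb14, Atf5, Tnnt2 and Pcbp4 were under 50 CPM in the other cells. They entered this ranking only through the raised cells, so their places are a description. Against the same clusters Tagln was at 2.02, Tnnt2 at 2.10, Asns at 1.59, Atf5 at 1.56, Psph at 1.52 and H19 at 0.93, while Bgn was at 0.11. Bgn was at 171 CPM in raised cells and 159 CPM in other cells of the same clusters.

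The 10 lowest were genes of secretory, islet, acinar, myeloid and epithelial cells. They were Tff2 at -8.43 (-14.32 to -6.54, from 1 UMI in raised cells), Iapp at -8.37 (-11.74 to -6.84, from 2 UMIs), Ppy at -7.55, Pyy at -7.09, Ctrb1 at -6.99, Lyz2 at -6.24, S100a14 at -4.35, Plac8 at -4.29, Fxyd3 at -4.15 and Cldn7 at -4.03. With other cells of the same clusters as the comparison, Ctrb1 was at -4.07 and the other 9 lay between -1.54 and 0.38.

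Among 2783 genes outside the interval with at least 50 CPM in raised cells, those whose level followed the summed level of the 32 genes most closely over the 272 raised cells were Tnnt2 (Spearman's rho 0.32), Ifitm3 (0.30), Ccnd2 (0.30), Rexo2 (0.28) and Npm1 (0.28). Those with the most negative rho were Dap (-0.29), Itgav (-0.25), Ndrg1 (-0.22), Tmsb10 (-0.22) and Inhba (-0.22). These values are a description over cells of 1 library that share depth and cluster, and all are weak.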
